A study of Mus musculus with 8 samples.

Results

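The 10 genes described here are regulators of fat cell formation and carriers or stores of lipid: Cebpb, Cebpd, Cebpa, Pparg, Zfp423, Fabp4, Cd36, Lpl, Plin2 and Adipoq. They were taken as the probe sets annotated to one of these symbols alone, with the brightest probe set standing for a gene where several exist, out of 19938 genes that have a probe set of their own. Each of the 10 had 1 such probe set. Genes whose mean log2 intensity over the 8 arrays did not pass 7.14, the 40th percentile of all probe sets, count as dim. Of the 10 genes, 6 lay above that value, while Pparg, Lpl, Adipoq and Cd36 were dim and were kept with that mark. Lpl missed the value by 0.0446 on the log2 scale.

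Bone marrow stromal cells were grown from the femurs and tibiae of C57BL/6 mice aged 6 to 8 weeks, seeded on scaffolds of skelite, a calcium phosphate ceramic, and hybridised to 8 arrays. Each combination of 4 conditions with 2 media had 1 array. Microgravity cultures flew in incubation units, and centrifuge cultures flew beside them on a 1 g centrifuge. Ground cultures stayed on Earth in the same kind of unit with manual operation, and laboratory cultures stayed in 24-well dishes. Each condition was run in osteoinductive medium, whose additives are not given in the sources used here, and in growth medium, which contained serum and no added cytokine. No genotype other than the strain is labelled, and whether mice were pooled is not given. The gravity label of both centrifuge samples reads microgravity, against their titles, and 1 description of the osteoinductive centrifuge sample names growth medium. The titles were followed, so every value below for "centrifuge" rests on them.

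In textbook adipogenesis, Cebpb and Cebpd are the early transcription factors that a hormonal stimulus induces, and they activate Cebpa and Pparg, the pair that holds the fat cell programme in place. Zfp423 marks cells committed to that programme. Fabp4 carries fatty acids inside the cell, Cd36 brings them across the membrane, Lpl releases them from lipoprotein triglyceride, Plin2 coats lipid droplets, and Adipoq encodes the hormone adiponectin of the mature fat cell. In marrow, stromal cells can enter either the bone-forming or the fat-forming lineage. Fabp4 and Cd36 are also made by endothelial cells and macrophages, and Cd36 and Lpl by muscle.

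The promoter windows that hold letters read by these regulators are shown because the C/EBP factors and nuclear receptors of the group act on one another's genes. RefSeq windows of assembly GRCm38.p6, from 250 bases before to 50 after a gene start, were found for 7 of the 10 genes, in 10 windows. Cebpd, Fabp4 and Lpl had no entry. Both strands were searched for TTGCNNAA, letters of the C/EBP type, for AGGTCA, a nuclear receptor half-site, and for ACANNNTGT, the core spacing of a glucocorticoid response element. Capitals mark the matches.

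Plin2, chr4:86670010-86670309, minus strand: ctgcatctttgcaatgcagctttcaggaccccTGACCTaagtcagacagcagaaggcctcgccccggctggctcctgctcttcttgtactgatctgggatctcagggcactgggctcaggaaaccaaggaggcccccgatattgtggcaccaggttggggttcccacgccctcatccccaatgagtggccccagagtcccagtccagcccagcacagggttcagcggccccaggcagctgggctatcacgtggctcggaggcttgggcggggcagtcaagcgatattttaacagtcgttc

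Cd36, chr5:17835847-17836146, minus strand: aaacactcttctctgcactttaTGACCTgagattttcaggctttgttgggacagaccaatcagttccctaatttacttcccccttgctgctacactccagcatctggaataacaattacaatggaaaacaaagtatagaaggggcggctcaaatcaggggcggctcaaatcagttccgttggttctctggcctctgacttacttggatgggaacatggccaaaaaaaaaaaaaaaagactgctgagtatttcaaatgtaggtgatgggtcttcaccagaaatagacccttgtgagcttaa

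Pparg, the last of its 3 starts, chr6:115421816-115422115, plus strand: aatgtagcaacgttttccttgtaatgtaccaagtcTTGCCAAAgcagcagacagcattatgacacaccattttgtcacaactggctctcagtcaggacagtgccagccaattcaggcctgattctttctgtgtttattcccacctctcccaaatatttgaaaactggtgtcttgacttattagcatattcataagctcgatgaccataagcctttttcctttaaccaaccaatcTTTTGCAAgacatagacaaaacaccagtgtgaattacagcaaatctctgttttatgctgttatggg

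The capitals in Plin2 and Cd36 are AGGTCA read on the other strand, 218 and 228 bases before the start. In the Pparg window the capitals are the C/EBP-type letters, 215 and 16 bases before the start. AGGTCA lay in 5 of the 10 windows, those of Plin2, Cd36, 2 of the 3 Pparg starts and 1 of the 2 Zfp423 starts, and in 16.3% of all 32851 windows. TTGCNNAA lay in 2 of the 10, the last Pparg start and the other Zfp423 start, and in 10.8% of all windows. ACANNNTGT lay in none of the 10 and in 6.85% of all windows. A match describes letters only.

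**Figure D1:**
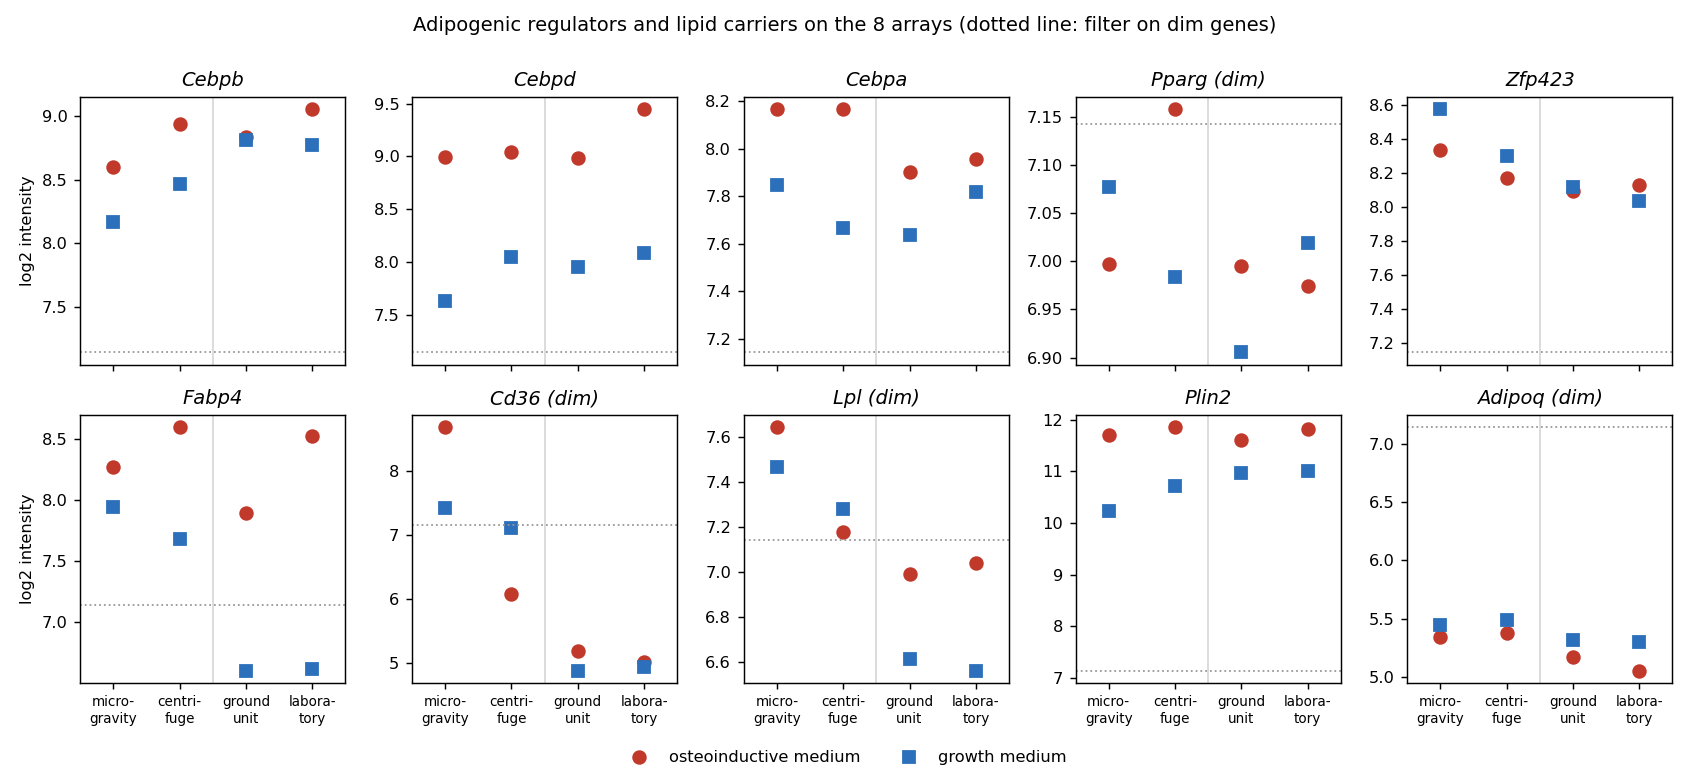
Log2 intensity of each of the 10 genes on the 8 arrays, with osteoinductive medium as circles and growth medium as squares; each panel has its own axis and the dotted line is the filter on dim genes. Cebpd, Cebpa and Plin2 were higher on every osteoinductive array than on every growth array, and Cd36, Lpl, Adipoq and Zfp423 were higher on every flight array than on every ground-based array.

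The 3 C/EBP regulators and the lipid-handling genes Fabp4 and Plin2 were higher in osteoinductive medium. Of the 10 genes, 5 were higher in osteoinductive than in growth medium and 0 were lower, in limma fits that adjust p over all tested genes by the Benjamini-Hochberg method. The same fits gave a difference for 14.5% of genes above the filter and for 8.45% when dim genes were included. The median log2 difference was 0.27 over the 10 genes, −0.02 over genes above the filter and 0.005 with dim genes included. Each medium had 4 arrays, and nothing in the labels says that they came from separate marrow isolations, so p-values measure the spread between these arrays, which may in part be technical. In such bulk RNA, fewer cells of a kind and less RNA per cell cannot be told apart.

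Cebpd stood at log2 intensities of 8.99, 9.04, 8.98 and 9.45 in osteoinductive medium, in the order microgravity, centrifuge, ground and laboratory, against 7.63, 8.05, 7.95 and 8.08 in growth medium. The lowest osteoinductive array lay well above the highest growth array. Its means were 9.12 ± 0.22 and 7.93 ± 0.21 (SD, n = 4 each), a 2.28-fold difference (log2 1.19, SE 0.0937, limma adjusted p = 6.12e-06). Within the 4 conditions the log2 difference was 1.36, 0.99, 1.04 and 1.37.

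Cebpb, the other early factor, read 8.60, 8.94, 8.84 and 9.06 in osteoinductive medium, against 8.17, 8.46, 8.82 and 8.77 in growth medium. The media overlapped, because both ground-based growth arrays stood near the osteoinductive ones. The log2 difference of 0.30 (SE 0.0936) passed with a limma adjusted p of 0.0485. Within the ground units it was 0.02, against 0.43 in microgravity, 0.48 on the centrifuge and 0.28 in dishes.

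Cebpa, which acts later and with Pparg, read 8.17, 8.17, 7.90 and 7.96 in osteoinductive medium, against 7.85, 7.67, 7.64 and 7.82 in growth medium. The osteoinductive arrays were all higher, by a narrow margin. The means of 8.05 ± 0.14 and 7.74 ± 0.11 (SD, n = 4 each) differed by a log2 value of 0.31 (SE 0.0873, limma adjusted p = 0.0351). The calls on Cebpa and Cebpb were lost under 10 and 8 of 15 other settings, with adjusted p up to 0.11 for Cebpa and 0.167 for Cebpb.

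Plin2, the droplet coat protein, had log2 intensities of 11.70, 11.85, 11.60 and 11.81 in osteoinductive medium, against 10.22, 10.72, 10.97 and 11.00 in growth medium. The osteoinductive arrays lay close together and the growth arrays were more spread, with microgravity lowest. The difference was 2.02-fold (log2 1.01, SE 0.122, limma adjusted p = 0.000172). Within conditions the log2 difference was 1.48 in microgravity, 1.14 on the centrifuge, 0.63 in ground units and 0.81 in dishes.

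Fabp4, the fatty acid carrier, read 8.27, 8.60, 7.89 and 8.52 in osteoinductive medium, against 7.95, 7.68, 6.60 and 6.62 in growth medium. On both ground-based growth arrays it was below the filter value, while the microgravity growth array passed the lowest osteoinductive array, so the media overlapped. The difference was 2.15-fold (log2 1.11, SE 0.182, limma adjusted p = 0.00172).

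For the other 5 genes no difference between media passed the test. Pparg stayed dim, between 6.91 and 7.16 on all 8 arrays, with a log2 difference of 0.04 (limma adjusted p = 0.876). Zfp423 differed by −0.07 (limma adjusted p = 0.649), Lpl by 0.23 (0.21) and Adipoq by −0.15 (0.314), all as log2 differences. Cd36 differed by 0.15 (SE 0.251, limma adjusted p = 0.802), with opposite signs within the flown conditions, 1.26 in microgravity and −1.03 on the centrifuge. The osteoinductive arrays exceeded every growth array in 3 of the 10 genes, Cebpd, Cebpa and Plin2, where 7.82% of all genes had media that did not overlap in either direction.

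**Figure D2:**
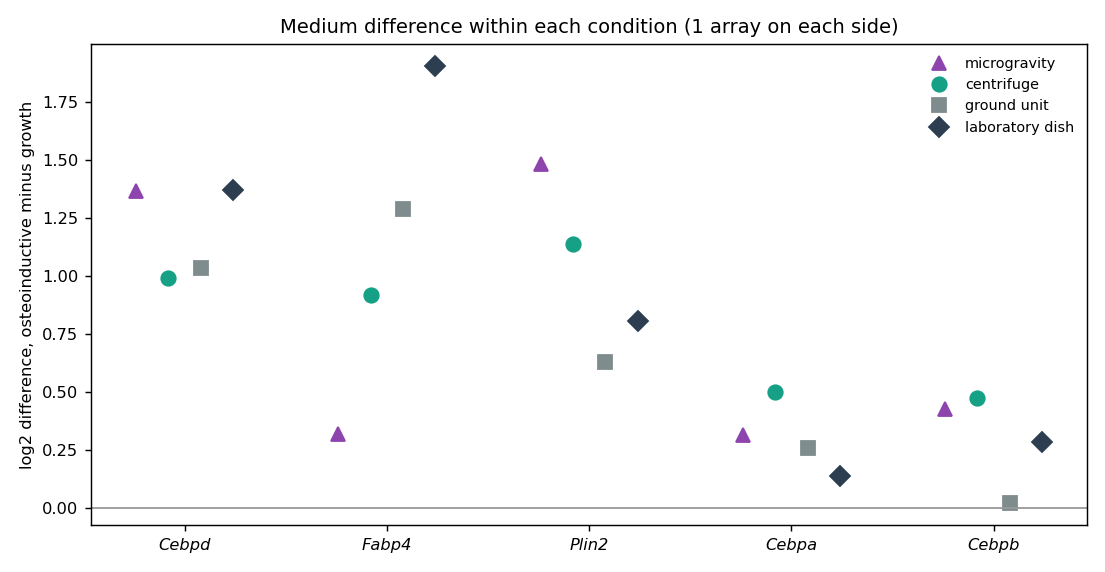
Log2 difference, osteoinductive minus growth medium, within each of the 4 conditions, with 1 array on each side of each point, for the 5 genes that passed the medium test. Cebpd lay between 0.99 and 1.37 in the 4 conditions, while Fabp4 ran from 0.32 in microgravity to 1.90 in dishes and Plin2 from 0.63 in ground units to 1.48 in microgravity.

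Among other adipogenic activators, 6 of 25 tested genes were higher in osteoinductive medium, 1 was lower and 18 did not pass. Over all 13205 genes above the filter 14.5% passed, 848 higher and 1073 lower. Klf9, a Krüppel-like factor, rose by a log2 value of 1.13 (limma adjusted p = 4.36e-05) and Klf15, another, by 0.74 (8.28e-05). The coactivator Ppargc1a rose by 0.76 (0.000173) and the oxysterol receptor Nr1h3 by 0.60 (0.000698). Of 22 inhibitors of adipogenesis, 5 were higher and 3 lower. Nr2f1, the orphan receptor COUP-TFI, rose by 0.59, the ligand Wnt5a by 0.58, the signal transducer Smad3 by 0.38 and Klf2 by 0.34 (limma adjusted p from 0.000627 to 0.0163). The median log2 difference was 0.08 over the activators and 0.03 over the inhibitors.

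Genes that handle lipid included some higher and some lower in osteoinductive medium, where 14.5% of genes above the filter passed in either direction. Of 17 genes of fatty acid uptake and binding, 2 were higher and 1 lower. The fatty acid transporter Slc27a1 rose by a log2 value of 1.36 (limma adjusted p = 1.27e-06), the lipoprotein receptor Lrp1 rose by 0.78 (0.00131) and the scavenger receptor Scarb1 fell by 0.31 (0.0386). Of 21 genes of triglyceride and fatty acid synthesis, 4 were higher and 2 lower, among them the desaturase Scd1 at 0.73 (limma adjusted p = 0.00164), the phosphatidate phosphatase Lpin3 at 0.47 (0.00545), malic enzyme Me1 at −0.70 (0.00309) and the elongase Elovl6 at −0.45 (0.00427). In the lipid droplet and lipolysis list 0 of 16 were higher and 1, the droplet GTPase Rab18, was lower by −0.30 (0.03). Targets of PPAR receptors were higher in 3 of 14 and lower in 1, with the mitochondrial fatty acid importer Cpt1a at 0.46 (limma adjusted p = 0.0049), Acadl of fatty acid oxidation at 0.40 (0.015), haptoglobin Hp at 0.38 (0.0154) and the thioesterase Acot2 at −0.51 (0.00607).

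Beside Fabp4 and Plin2, a separate list of adipokines and mature adipocyte markers was examined. Counts are read against the 14.5% of genes above the filter that passed with medium in either direction, or 8.45% with dim genes included. Of its 10 tested genes, 0 were higher and 1, Nampt, was lower (log2 −0.40, limma adjusted p = 0.0114). None of the 9 dim genes of that list passed. The mean log2 intensity of all 19 was 7.35, 7.43, 7.26 and 7.25 in osteoinductive medium, against 7.45, 7.34, 7.22 and 7.20 in growth medium. The hormone genes Lep and Retn were dim, and the droplet proteins Plin1 and Cidec lay between 7.26 and 7.68 on every array. Of 19 markers of adipocyte progenitors, 4 were higher and 4 lower, with Pi16 at a log2 difference of 1.33 (limma adjusted p = 1.88e-05), the receptor Pdgfra at 0.80 (0.000422), the transcription factor Foxc1 at 0.59 (0.00182) and Prrx1 at −0.48 (0.00364).

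The glucocorticoid response list holds genes that respond to a hormone class commonly used to start adipogenesis in culture. It was higher in 12 of 18 tested genes and lower in 1, with a median log2 difference of 0.84. Among all genes above the filter 14.5% passed in either direction. The inhibitor Serpina3n rose by 4.01 (limma adjusted p = 4.33e-08), the cortisone-activating enzyme Hsd11b1 by 2.09 (4.67e-08), the receptor cochaperone Fkbp5 by 2.39 (5.16e-08) and the metallothionein Mt2 by 1.55 (1.27e-06). Its part in the rise of Cebpd, Fabp4 and Plin2 was not tested. Of 10 tested osteoblast genes, 0 were higher and 1, the growth factor Bmp2, was lower (log2 −0.61, limma adjusted p = 0.000614), beside the same 14.5%.

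Flown cultures had more Cd36, Fabp4, Lpl and Zfp423 and less Cebpb than ground-based ones. Flight here means the microgravity and centrifuge arrays together, and ground-based the ground and laboratory arrays. Of the 10 genes 4 were higher and 1 lower in limma fits, beside differences in 38.4% of genes above the filter and 27.8% with dim genes included, in either direction. The median log2 difference was 0.17 over the 10 genes, −0.09 over genes above the filter and −0.02 with dim genes included. Flight and ground-based arrays did not overlap for Cd36, Lpl, Adipoq and Zfp423, 4 of the 10, beside 23.4% of all genes.

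Cd36, the fatty acid importer and a dim gene, read 8.68 and 7.42 in microgravity and 6.07 and 7.11 on the centrifuge (osteoinductive, then growth medium), against 5.18 and 4.88 in ground units and 5.02 and 4.93 in dishes. All 4 flight arrays were above all 4 ground-based arrays, and the microgravity array in osteoinductive medium was highest by a wide margin. The means were 7.32 ± 1.07 in flight and 5.00 ± 0.13 on the ground (SD, n = 4 each), a log2 difference of 2.32 (SE 0.383, limma adjusted p = 0.000873). The ground-based linear intensities lay between 29.3 and 36.3, among dim values where the size of a ratio depends on the background: with 32 added to every intensity before log2 the difference was 1.62 (limma adjusted p = 0.00576). Without the osteoinductive microgravity array the log2 difference was 1.81 (adjusted p = 0.000149).

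Lpl, the lipoprotein lipase and also dim, read 7.65 and 7.47 in microgravity and 7.18 and 7.28 on the centrifuge, against 6.99 and 6.62 in ground units and 7.04 and 6.56 in dishes, again osteoinductive before growth medium. The flight arrays were all higher, with microgravity above centrifuge in both media. The means of 7.39 ± 0.21 and 6.80 ± 0.25 (SD, n = 4 each) differed 1.51-fold (log2 0.59, SE 0.116, limma adjusted p = 0.00279).

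Fabp4 averaged 8.12 ± 0.40 in flight and 7.41 ± 0.96 on the ground (SD, n = 4 each), a 1.64-fold difference (log2 0.71, SE 0.189, limma adjusted p = 0.0114). The groups overlapped, since the osteoinductive dish array reached 8.52. In growth medium the flight mean was above the ground-based mean by a log2 value of 1.20, and in osteoinductive medium by 0.23. The call rests on the medium term of the fit: without it the adjusted p was 0.214.

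Of the regulators, Cebpb and Zfp423 passed. Cebpb averaged 8.54 ± 0.32 in flight and 8.87 ± 0.13 on the ground (SD, n = 4 each), a log2 difference of −0.33 (SE 0.109, limma adjusted p = 0.0317), and overlapped between the groups. Zfp423, the commitment factor, averaged 8.35 ± 0.17 in flight and 8.09 ± 0.04 on the ground (SD, n = 4 each), a log2 difference of 0.25 (SE 0.0908, limma adjusted p = 0.0437). Their calls were lost under 7 and 9 of 15 other settings, with adjusted p up to 0.126 for Cebpb and 0.148 for Zfp423, and without the osteoinductive microgravity array 3 of the 10 genes passed in place of 5.

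No flight difference passed for Cebpa (log2 0.13, limma adjusted p = 0.225), Cebpd (−0.19, 0.209), Pparg (0.08, 0.482), Plin2 (−0.22, 0.209) or Adipoq (0.21, 0.058). Adipoq read 5.34 and 5.45 in microgravity and 5.38 and 5.49 on the centrifuge, against 5.17 and 5.31 in ground units and 5.05 and 5.30 in dishes. Its flight arrays were thus all higher, at intensities far below the filter value.

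**Figure D3:**
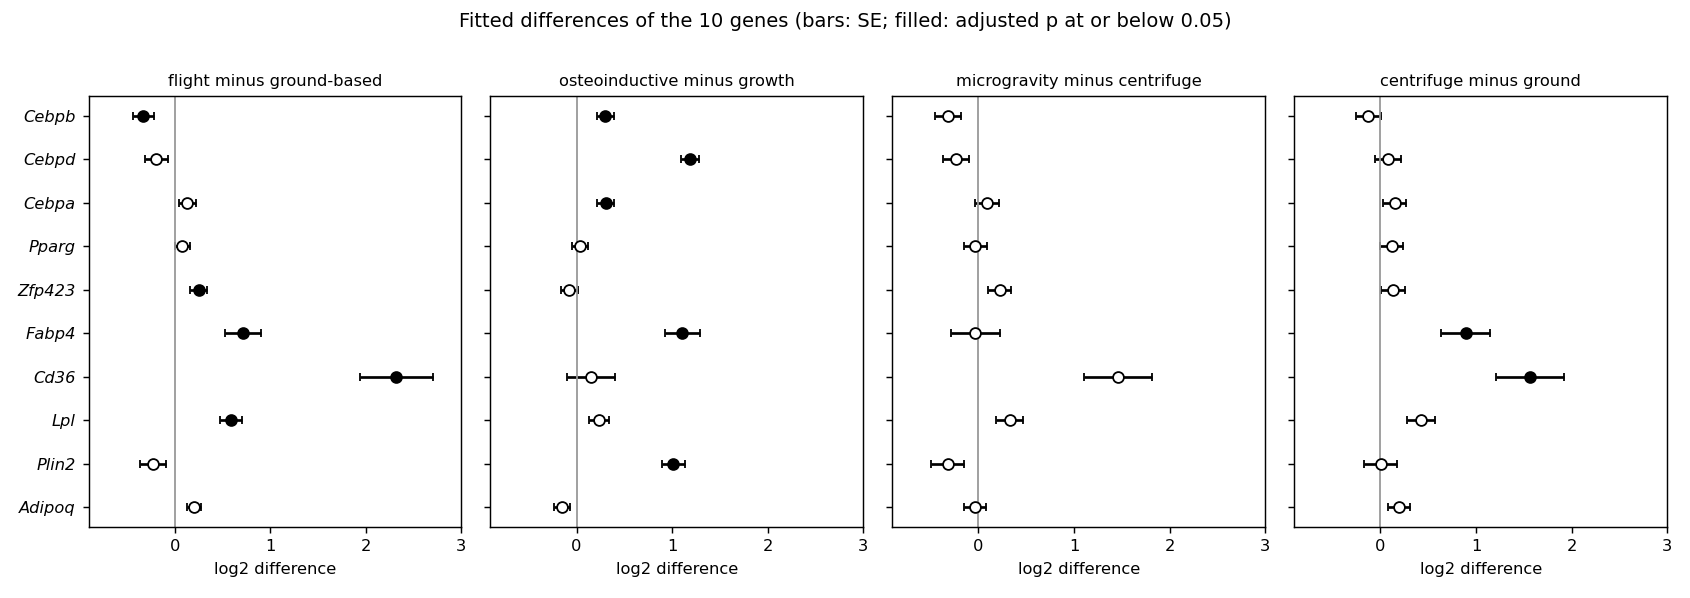
Fitted log2 differences of the 10 genes in 4 comparisons, with bars of 1 SE; filled points have a limma adjusted p at or below 0.05. Cd36 had the widest flight difference, at 2.32, and Cebpd, Fabp4 and Plin2 the widest medium differences, at 1.19, 1.11 and 1.01; no point is filled between microgravity and centrifuge.

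Lists of related genes held members higher and members lower in flight, and their counts are to be read against the 38.4% of genes above the filter that passed. Of those genes 1675 were higher and 3393 lower. Of 25 activators 3 were higher and 2 lower, and of 22 inhibitors 2 were higher and 8 lower. The preadipocyte factor Dlk1 rose by a log2 value of 1.54 (limma adjusted p = 6.39e-05), while the stress factor Ddit3 fell by 1.01 (9.57e-05), the corepressor Rcor1 by 0.45 (0.00532) and the cytokine Tgfb1 by 0.31 (0.00937). Among activators the factor Nfia rose by 0.43 (limma adjusted p = 0.00429), Ppargc1a by 0.36 (0.0319) and the dim Ebf2 by 0.28 (0.0248), and the receptor Rxrb fell by 0.33 (0.00568).

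Fatty acid uptake and binding had 3 genes higher and 4 lower of 17 in flight. The carrier Fabp3 rose by a log2 value of 0.56 (limma adjusted p = 0.000201), Fabp5 by 0.48 (0.00268) and Slc27a1 by 0.52 (0.00106), and the acyl-CoA synthetase Acsl5 fell by 0.68 (0.000415). In the lipid droplet and lipolysis list 2 of 16 were higher and 3 lower, with monoglyceride lipase Mgll at 0.91 (limma adjusted p = 5.27e-06), hormone-sensitive lipase Lipe at 0.33 (0.011), Faf2 at −0.35 (0.00583) and the droplet protein Plin3 at −0.33 (0.00856). Synthesis genes were higher in 3 and lower in 5 of 21, with Me1 at −0.65 (limma adjusted p = 0.00151), the acyltransferase Gpat4 at −0.37 (0.0066), the carboxylase Acaca at −0.31 (0.0144) and Elovl6 at 0.29 (0.0184).

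Of 10 tested adipokines and mature adipocyte markers 3 were higher in flight and 0 lower, and 4 of the 9 dim ones were higher. The shares over all genes were 38.4% above the filter and 27.8% with dim genes included, in either direction. The list's count ran from 0 to 6 over the alternative settings and was 2 without the osteoinductive microgravity array. Angiotensinogen Agt rose by a log2 value of 0.63 (limma adjusted p = 0.000299) and Lipe as above, and the dim genes Ucp1, the thermogenic uncoupler, and Acvr1c, an activin receptor, rose by 0.57 (0.00186) and 0.23 (0.036). PPAR targets were higher in 1 and lower in 1 of 14, Acaa2 at 0.43 (limma adjusted p = 0.0223) and Acot2 at −0.42 (0.025). Of 5 dim ones 2 were higher, Pdk4 at 0.84 (limma adjusted p = 0.00163) and the glycerol channel Aqp7 at 0.28 (0.0441). Pdk4 is also in the glucocorticoid response list. Without the osteoinductive microgravity array, 0 of the PPAR targets above the filter passed.

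**Figure D4:**
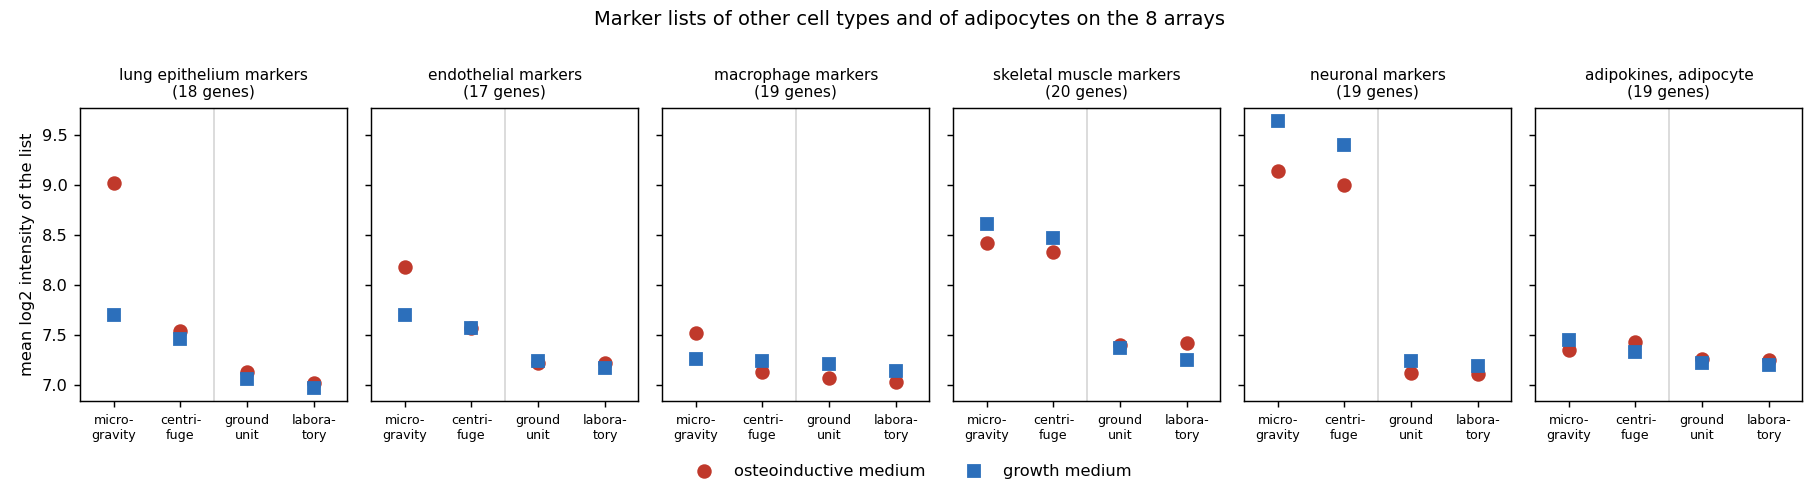
Mean log2 intensity of 6 marker lists on the 8 arrays, with osteoinductive medium as circles and growth medium as squares. The lung list reached 9.02 on the osteoinductive microgravity array. The lung, endothelial, muscle, neuronal and adipocyte lists were each higher on all flight arrays than on all ground-based arrays, and the macrophage list overlapped. The adipocyte list differed little, at 7.34 to 7.45 in flight and 7.20 to 7.26 on the ground.

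Counts for markers of other cell types are read against the same 38.4% of genes above the filter that passed with flight. Endothelial markers were higher in 12 and lower in 0 of 14 tested genes, muscle markers in 15 and 0 of 18, lung epithelium markers in 6 and 0 of 13 and neuronal markers in 16 and 0 of 16. Macrophage markers were higher in 1 and lower in 2 of 9, and of 10 dim ones 1 was higher and 0 lower. That share joins both directions: of 13205 genes above the filter, 1675 were higher and 3393 lower in flight. The summed linear intensity of the 17 endothelial markers ran between 3396 and 5304 in flight and between 2644 and 2735 on the ground, and that of the 20 muscle markers between 8375 and 10691 and between 3516 and 3888. For the 18 lung markers the sums ran between 4185 and 18005 in flight and between 2661 and 2989 on the ground. Those of the 19 neuronal markers ran between 14167 and 21076 in flight and between 4050 and 5103 on the ground. Among the neuronal markers, Stmn2 rose by a log2 value of 4.30 (limma adjusted p = 3.38e-12) and Gpm6a by 4.53 (4.39e-11).

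The osteoinductive microgravity array, highest for Cd36, was also highest for the lung, endothelial and macrophage lists, at mean log2 intensities of 9.02, 8.18 and 7.52. On it the surfactant gene Sftpc read 12.81, against 9.5 to 10.6 on the other flight arrays and 6.61 to 6.78 on the ground-based arrays. The endothelial adhesion gene Pecam1 read 8.86, against 7.39 to 7.75 and 6.82 to 6.95. Within the macrophage list, the lysozyme gene Lyz1 read 11.59 on it, against 8.00 to 8.66 on the other flight arrays and 6.61 to 7.20 on the ground-based arrays. Lyz2, the other lysozyme gene, read 9.72, against 7.69 to 7.80 on the other flight arrays and 7.43 to 7.72 on the ground-based arrays. The list did not move together: Cd68 read 7.93 and Laptm5 8.07 on that array, below all ground-based arrays. With flight, Lyz1 rose by a log2 value of 2.32 (limma adjusted p = 0.00665) and the dim mannose receptor gene Mrc1 by 0.87 (0.000164), while Laptm5 fell by 0.32 (0.0206) and Cd68 by 0.24 (0.0363). The pan-leukocyte gene Ptprc was dim, between 6.86 and 7.30 on the 8 arrays.

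No probe set of an array reads 0, so absence of a marker cannot be read from these values. Of 19 tested markers of adipocyte progenitors 3 were higher and 7 lower in flight, and of 4 dim ones 2 were higher. Cd24a rose by a log2 value of 4.06 (limma adjusted p = 3.62e-09) and Dlk1 as above, while F3 fell by 0.88 (0.000488) and the matrix protein gene Mgp by 0.76 (0.00134). Of 10 tested osteoblast genes 3 were higher in flight and 2 lower, beside the 38.4% of genes above the filter that passed. Ibsp rose by a log2 value of 1.73 (limma adjusted p = 4.59e-06), Dlx5 by 0.87 (0.01) and Alpl by 0.35 (0.00829), while Atf4 fell by 0.34 (0.0133). The bone collagen gene Col1a1 lay between 12.56 and 12.77 on the 8 arrays. The part of the endothelial, muscle, lung, neuronal and macrophage markers in the flight differences of Cd36, Fabp4 and Lpl was not tested.

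Between microgravity and the centrifuge, 0 of the 10 genes passed, and 0% of genes passed over all, with the filter (0%) and without it (0%). The smallest limma adjusted p over all genes above the filter was 0.187, and 1507 genes had an unadjusted p under 0.05. Among the 10 genes 3 did: Cd36 at a log2 difference of 1.46 (SE 0.355, limma adjusted p = 0.296), Lpl at 0.33 (0.461) and Cebpb at −0.32 (0.402). For Cd36 the log2 difference was 2.61 in osteoinductive medium and 0.31 in growth medium. With 1 array on each side per medium, the spread came from how the media differed between conditions.

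Cultures on the flight centrifuge, compared with ground units, had more Cd36 and Fabp4. This asks about flight with the centrifuge's 1 g in place, and 2 of the 10 genes passed, beside 10.1% of genes above the filter and 7.61% with dim genes included. Cd36 was higher by a log2 value of 1.56 (SE 0.355, limma adjusted p = 0.0178), with differences of 0.89 in osteoinductive and 2.23 in growth medium. Its ground arrays were dim, and with 32 added before log2 the difference was 1.01 and did not pass (limma adjusted p = 0.104). Fabp4 was 1.86-fold higher (log2 0.89, SE 0.257, limma adjusted p = 0.0464). Lpl differed by 0.43 (0.108), and the other 7 did not pass. Without the growth centrifuge array or the growth ground array 0 of the 10 passed. The comparison shares its centrifuge arrays with the one before it.

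Whether the medium acted differently in flight was asked of all 10 genes, and 0 passed, as did 0% of genes above the filter and 0% with dim genes included (limma, smallest adjusted p 0.647, 525 genes with an unadjusted p under 0.05). Fabp4 and Plin2 had an unadjusted p under 0.05. The medium difference of Fabp4 was −0.98 in flight relative to ground-based cultures on the log2 scale (SE 0.268, limma adjusted p = 0.981), and that of Plin2 0.59 relative to them (SE 0.222, limma adjusted p = 0.999).

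Ground units and laboratory dishes, both at normal gravity, were compared as values only, with 1 array on each side. In osteoinductive medium Fabp4 was lower in ground units by a log2 difference of −0.63, Cebpd by −0.47, Cebpb by −0.22 and Plin2 by −0.21. In growth medium the same genes differed by −0.01, −0.13, 0.04 and −0.04.

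The genes whose log2 profile over the 8 arrays came closest to each member's, after centring each on its own mean, were found by the root mean square difference among genes above the filter. For Plin2 they were Ecm1 at 0.0525, Rab31 at 0.0843 and Pappa at 0.0869, beside an SD of 0.60 for Plin2 over the arrays. For Cebpd they were Chst11 at 0.108, Tcp11l2 at 0.128 and Adamts1 at 0.135, with an SD of 0.67. For Fabp4 the collagenase gene Mmp13 was closest at 0.0986, then Gria4 at 0.191 and Pfkp at 0.195, with an SD of 0.78.

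Mmp13 read 8.39, 8.52, 7.98 and 8.55 in osteoinductive medium, against 7.87, 7.82, 6.82 and 6.61 in growth medium, in the order used for Fabp4. For Lpl the closest were Jmjd8 at 0.0893, Agt at 0.0915 and Epb41l5 at 0.107 (SD 0.38). For Cd36 no gene came nearer than Eln at 0.367, followed by Fhl1 at 0.388 and Peg3 at 0.423 (SD 1.43). Cebpb had Ctdsp2 at 0.0634, Nfic at 0.0649 and Crebrf at 0.065 (SD 0.29). Cebpa had Olfr524 at 0.0531, Camta2 at 0.0562 and Rarres2 at 0.0572 (SD 0.20), and Zfp423 had Adcy3 at 0.0435, Inha at 0.047 and Xpr1 at 0.0477 (SD 0.18). All these profiles share the same 8 arrays.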

How the data were processed

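Total RNA of the 8 samples was amplified, labelled with biotin and hybridised, 1 array per sample, per the labels' protocols. For each probe set the authors deposited 1 linear intensity per array, made with RMA or GCRMA, both named in the submitters' processing notes without versions or roles. No source used here names a genome build. Array medians ran from 191.3 to 196.4 in flight and from 180.9 to 183.6 on the ground, a log2 spread of 0.119 over the 8 arrays. Values were used as deposited after log2, so this shift was not removed from the flight comparison. Quantile normalization was run as an alternative. The number of arrays limits the precision.

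Of 35557 probe sets, 21789 had 1 gene in the platform annotation, 1621 several and 12147 none; 21698 matched RefSeq genes of assembly GRCm38.p6, used for names. Multi-gene probe sets were left out. limma 3.58.1 in R 4.3.3 (lmFit, eBayes) was fitted to the 13205 genes above the filter. Dim genes came from a fit over all 19938 genes. Benjamini-Hochberg adjustment was two-sided with a threshold of 0.05. Flight against ground-based had medium as covariate (5 residual degrees of freedom). Medium, microgravity and centrifuge contrasts came from a fit of condition and medium (3). The interaction used 4 groups (4). The script was tested on simulated data.

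The members and lists were chosen with earlier results of these data known. Genes named from a list were among its 4 with the lowest adjusted p in that comparison, apart from those given next. Not every list had genes named in each comparison. For each member called the 3 nearest profiles were named. Lep, Retn, Plin1, Cidec, Pecam1, Lyz2, Ptprc and Col1a1 levels were named after their values were seen. Alternatives were quantile normalization, no filter or a stricter one (log2 7.99), 32 added before log2, mean over probe sets, an intensity trend, other covariates or arrays, and leaving out each array.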

Additional observations from a re-analysis of the deposited data

How the results depend on the processing

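The log2 differences of Lpl (0.48 to 0.72) and Cd36 (1.62 to 2.85) with flight, and of Cebpd (1.09 to 1.26), Fabp4 (0.84 to 1.37) and Plin2 (0.86 to 1.14) with medium, passed under all 15 alternatives run. No called difference of the 10 genes changed sign. Of the 10 genes, 5 passed for flight, and the count was 3 with quantile normalization, 2 with no medium term and 3 to 5 when an array was left out. For medium 5 passed, with 3 when no filter was used and 3 to 4 when an array was left out. Between the centrifuge and ground units 2 passed, with 0 after quantile normalization, 0 with 32 added before log2, 1 without the filter, 1 with the stricter filter and 0 to 2 when an array was left out. Between microgravity and the centrifuge 0 passed, with 1 (Cd36, log2 1.46) in a fit of only those 4 arrays and 0 to 1 when an array was left out, the 1 again being Cd36 without the growth microgravity array (log2 2.20, adjusted p = 0.0224). The interaction stayed at 0. The Cd36 difference between centrifuge and ground ran from 0.77 to 2.35 and held in 11 of 15 alternatives, that of Fabp4 in 7 of 15. The fit of 4 arrays has few residual degrees of freedom, and the cause of the other changes was not tested. The medium fit pairs the media within the 4 conditions by its condition term, and with flight or ground-based in place of that term 4 passed; no replicate numbers pair the arrays otherwise. Counts of the gene lists, run under the same alternatives after seeing the data, stayed within 1.5 times in 352 cases and moved further in 98, with endothelial markers of flight at 2 to 14 and PPAR targets at 0 to 5. Named list genes kept their direction throughout and their call in 1324 cases, and lost it in 161.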
